A study of Homo sapiens with 15 samples.

Results

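MT-ATP8 and MT-ATP6 are the mitochondrial genes of the ATP synthase, and they were examined here for the 3′-OH ends of DNA strands that SSiNGLe-P1 maps. The members were all positions from 8366 to 9206 of the mitochondrial genome on both strands, which gave 1682 of the 33142 combinations of position and strand and held 118824 of the 5695751 mitochondrial termini of the study. MT-ATP8 covered 8366 to 8572 and MT-ATP6 covered 8527 to 9207 in the reference annotation, where both lie on the same strand and MT-ATP6 ends at the first base of MT-CO3. All 15 samples were crosslinked nuclei of K562, a wild-type human chronic myeloid leukemia cell line, with 3 biological replicates each left untreated or digested with 0.01, 0.1, 1 or 10 U of P1 nuclease. P1 preferentially cuts single-stranded DNA and leaves 3′-OH termini. Breaks already present in the DNA are mapped as well, so the untreated samples give the background. At 10 U the paper saw the genomic DNA degrade, which it relates to a low activity of P1 on double-stranded DNA. It proposes the 10 U samples as a possible further negative control, because single-stranded regions may be depleted or lost there. The mitochondria were those that purified together with the nuclei, and 1 cell line was used throughout.

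The ATP synthase makes ATP from the proton gradient across the inner mitochondrial membrane. MT-ATP6 encodes subunit a, which takes part in the proton path of the membrane part of the enzyme, and MT-ATP8 encodes a small membrane subunit beside it. Both are read from 1 messenger RNA in different frames. The heavy (H) and light (L) strands of mitochondrial DNA are copied at different times in the strand-displacement model of replication, which leaves the parental H strand single-stranded for a while, and the study used the H/L ratio of termini to examine this.

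The stretch that both genes share is shown because it is compared with the rest below. It is 46 bases long in the reference, from chrM:8527 to chrM:8572, and the sequence comes from the GENCODE transcripts, in the direction of transcription. The capitals mark the start codon of MT-ATP6 and the stop codon of MT-ATP8.
MT-ATP8 and MT-ATP6 shared bases: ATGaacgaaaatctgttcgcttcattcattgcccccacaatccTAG
The mitochondrial genome of the files differs slightly in length from this reference of 16569 bases, so the borders of the genes can be off by 1 or 2 bases in the counts. Positions of single termini below are those of the files, and no bases are given for them.

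The share of mitochondrial termini outside the non-coding region (NCR) that lay on the H strand of both genes rose with P1 while that on the L strand fell, and both were farthest from the untreated level at 1 U. The NCR holds the D-loop. The H-strand count was 1159, 4046 and 4097 termini in the 3 untreated samples, 9300, 10871 and 9026 at 1 U, and 1295, 1833 and 882 at 10 U. The L-strand count was 1059, 4706 and 4160 untreated, 3328, 2325 and 1491 at 1 U, and 632, 973 and 418 at 10 U. The 10 U samples were thus the shallowest ones together with the first untreated replicate, and shares rather than counts were compared. All mitochondrial termini went from 29622 to 692989 per sample, and those outside the NCR from 20536 to 229564.

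As a share of all termini outside the NCR, the H strand of the genes held 3.10, 2.65 and 2.81% in the untreated samples. It held 4.18, 5.06 and 5.12% at 1 U and 4.14, 4.21 and 4.29% at 10 U. Every sample at 1 U and 10 U lay above every untreated sample. The share was 1.67 times the untreated one at 1 U and 1.48 times at 10 U (geometric mean of the ratios within replicate numbers, higher in 3 of 3 replicates at both). The spread over the 5 amounts passed the exact two-sided permutation test within replicate numbers (p = 0.000417, adjusted p = 0.00125 over 9 tests). The L strand held 2.83, 3.08 and 2.86% untreated, 1.50, 1.08 and 0.846% at 1 U, and 2.02, 2.23 and 2.04% at 10 U. No treated sample at these amounts reached the lowest untreated one, and the factor was 0.380 at 1 U and 0.717 at 10 U. The spread over the 5 amounts passed the test (exact permutation p = 0.000208, adjusted p = 0.000938). Both strands together held 5.78% ± 0.141 (SD, n = 3) untreated, 5.93% ± 0.230 at 1 U and 6.31% ± 0.142 at 10 U, where all 3 samples lay above the 3 untreated ones, a difference that was not tested. The H-strand share at 10 U includes positions 8765 and 8766, described below and chosen for their height at 10 U. They held 571 and 253 per 100000 termini outside the NCR at 10 U, against 52.7 and 24.4 untreated. Without them the H-strand share was 2.78% ± 0.206 untreated and 3.42% ± 0.144 at 10 U, or 1.23 times the untreated one. The higher sum at 10 U was not shown apart from them.

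The L-strand direction at 10 U depended on the total. As a share of all mitochondrial termini, the NCR included, the L strand of the genes was 0.934% ± 0.0746 (SD, n = 3) untreated and 1.53% ± 0.154 at 10 U, which is 1.63 times higher. The part of the mitochondrial termini that lay outside the NCR was 32.0% ± 1.78 untreated, 60.2% ± 1.51 at 1 U and 72.8% ± 3.44 at 10 U. The H-strand share rose under both totals, by 3.16 times at 1 U and 3.37 times at 10 U when all mitochondrial termini were the total.

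The H/L ratio of termini in the genes does not need a total. It was 1.09, 0.860 and 0.985 in the untreated samples and 0.962, 1.05 and 1.04 at 0.01 U, so these groups overlapped. It was 1.87, 2.11 and 2.45 with 0.1 U. The values were 2.79, 4.68 and 6.05 with 1 U, and 2.05, 1.88 and 2.11 with 10 U. The 3 samples at 1 U were all above those of every other amount and also differed most among themselves, whereas 0.1 U and 10 U overlapped. Against the untreated samples the ratio was 1.04 times as high with 0.01 U, where 2 of 3 replicates were higher. With 0.1 U it was 2.18 times, with 1 U 4.40 times and with 10 U 2.06 times as high, in 3 of 3 replicates each. The spread over all amounts passed the test (exact permutation p = 0.000764, adjusted p = 0.00172). With 3 pairs, an exact sign-flip test of a single amount against untreated cannot go below p = 0.25, so the tests were made over all amounts.

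Counting each position once also put the mean of 1 U highest, with smaller values in the samples treated with 0.1 U or more. As unique sites, the ratio was 0.990 ± 0.0319 (SD, n = 3) untreated, 1.30 ± 0.0508 at 0.1 U, 1.61 ± 0.214 at 1 U and 1.37 ± 0.139 at 10 U (exact permutation p = 0.00153, adjusted p = 0.00229). The values at 1 U, from 1.39 to 1.81, overlapped those at 10 U, from 1.21 to 1.47, and 10 U was higher in 1 of 3 replicates. Without the third replicate of every amount the test gave exact permutation p = 0.0667. At 1 U the H strand had 693 to 721 of its 841 positions hit, so few were left to be hit. When every sample was drawn down to 1300 termini in the genes, as in the smallest one, the ratio was 0.955 ± 0.0533 untreated, 2.34 ± 0.452 at 1 U and 1.40 ± 0.140 at 10 U.

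**Figure D1:**
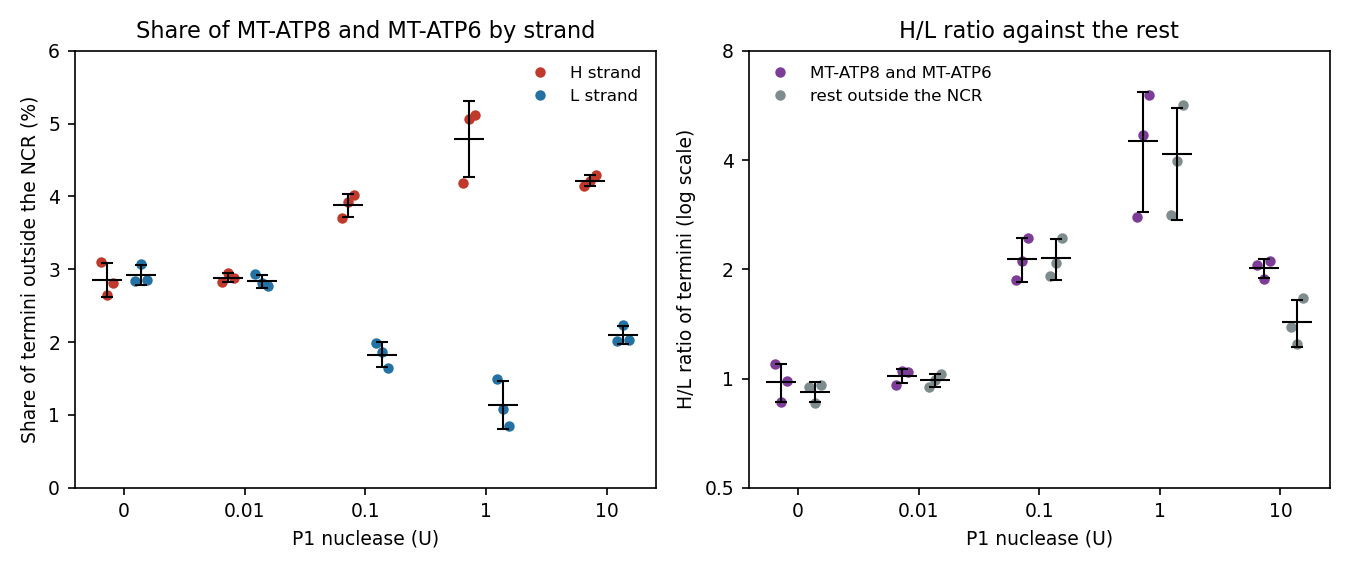
Left, the share of termini outside the NCR (%) that lay on each strand of MT-ATP8 and MT-ATP6. Right, the H/L ratio of termini (log scale) in both genes and in the rest outside the NCR. The x axis is the amount of P1 in U, points are replicates, and black bars are the mean ± SD (n = 3). The genes and the rest reach similar ratios at 1 U, and at 10 U all 3 values of the genes, from 1.88 to 2.11, lie above the 3 of the rest, from 1.24 to 1.66.

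Up to 1 U the genes were close to the rest of the genome, and at 10 U they stood above it. The H/L ratio of the rest outside the NCR was 0.946, 0.855 and 0.960 untreated, 2.83, 3.98 and 5.65 at 1 U, and 1.39, 1.24 and 1.66 at 10 U. Divided by this, the ratio of the genes was 1.06 ± 0.0824 (SD, n = 3) untreated, 1.03 ± 0.0239 with 0.01 U and 0.997 ± 0.0190 with 0.1 U. It was 1.08 ± 0.0935 with 1 U and 1.42 ± 0.132 with 10 U. The last was 1.33 times the untreated quotient and higher in 3 of 3 replicates (exact permutation p of the spread over the 5 amounts = 0.0197, adjusted p = 0.0254). Without the second or the third replicate of every amount the test gave exact permutation p = 0.075 and 0.15, with factors of 1.25 and 1.38.

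The genes' H-strand termini at 10 U included a pair of neighbouring positions with high counts. Positions 8765 and 8766, which lie 399 and 400 bases after the first base of MT-ATP8 and inside MT-ATP6, were the highest of the genes on the H strand at 10 U and were chosen for that. They had 270, 379 and 152 termini at 10 U, or 20.8, 20.7 and 17.2% of the genes' H-strand termini. The pair had 40, 88 and 97 termini or 2.66% ± 0.688 (SD, n = 3) untreated and 342, 453 and 390 termini or 4.06% ± 0.336 at 1 U. Position 8765 alone held 13.6% ± 0.583 at 10 U against 1.83% ± 0.284 untreated. Among all H-strand positions outside the NCR at 10 U, 8765 ranked 2 and 8766 ranked 10 by mean share.

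The pair was sharp and on 1 strand. The base before it had 10, 22 and 5 H-strand termini at 10 U and the base after it 12, 7 and 5. On the L strand, position 8765 had 0, 1 and 0 termini and 8766 had 0, 0 and 1. Without the pair, the H/L ratio of the genes at 10 U was 1.62 ± 0.126, which was 1.70 times the untreated one, and the quotient over the rest was 1.14 ± 0.0793 against 1.03 ± 0.0726 untreated. The pair was chosen for its height at 10 U and the rest kept its own highest positions, so leaving it out lowers the quotient at 10 U by construction, and these values are a description. The H/L ratio of the genes without the pair still passed the test (exact permutation p = 0.000208). The spread of its quotient over the rest, without the pair, did not pass (exact permutation p = 0.0769).

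**Figure D2:**
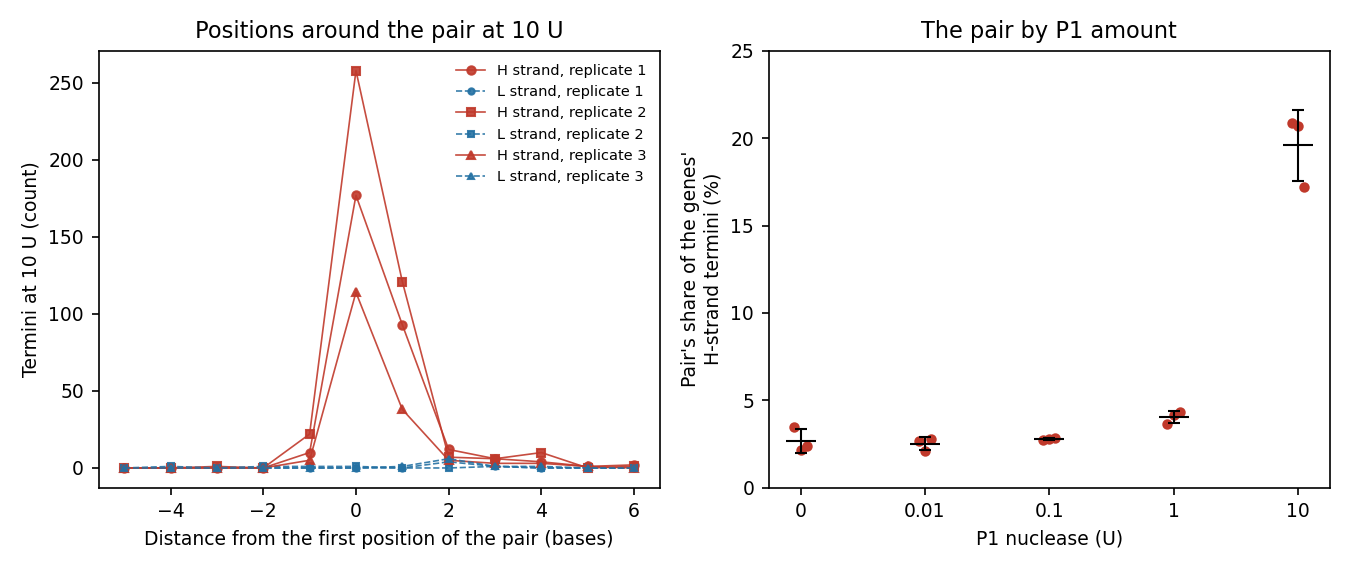
Left, termini (count) at 10 U at each base from 5 before to 6 after position 8765, by strand and replicate. Right, the share of the H-strand termini of both genes (%) held by positions 8765 and 8766, by P1 amount in U, with replicates as points and the mean ± SD (n = 3) in black. The pair holds from 17.2 to 20.8% at 10 U and 4.32% or less in every other sample.

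The other high positions at 10 U were lower, and several were near the start of MT-ATP8. On the H strand, 8370 had 40, 40 and 25 termini at 10 U and 8369 had 18, 51 and 18, which lie 4 and 3 bases after the first base of the gene. They held 2.70% ± 0.468 and 2.07% ± 0.697 of the genes' H-strand termini at 10 U (SD, n = 3), against 0.295% ± 0.196 and 0.180% ± 0.0130 untreated. Position 8558, inside the shared bases, had 26, 33 and 18 termini at 10 U, or 1.95% ± 0.130. The 5 highest H-strand positions together held 26.3% ± 1.87 at 10 U and 3.94% ± 0.920 untreated, a gap that partly follows from their choice at 10 U. The 10 highest H-strand positions of each sample itself held 34.2% ± 1.08 at 10 U and 19.0% ± 3.43 untreated, and this share also depends on depth.

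On the L strand, 8489 in MT-ATP8 was the highest at 10 U, with 44, 69 and 21 termini. It held 6.36% ± 1.16 of the genes' L-strand termini at 10 U (SD, n = 3), against 1.38% ± 0.345 untreated and 2.31% ± 0.660 at 1 U. It was followed by 9066 with 3.46% ± 0.447, 8439 with 3.00% ± 0.544, 8373 with 2.71% ± 0.933 and 8944 with 2.48% ± 0.467. The last 4 had between 7 and 35 termini per sample at 10 U, so each share rests on few reads. The 5 together held 18.0% ± 2.37 at 10 U and 6.46% ± 0.461 untreated, and they too were chosen at 10 U. The 10 highest L-strand positions of each sample itself held 27.1% ± 1.88 and 15.3% ± 1.86.

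Untreated samples had other leading positions on the H strand. These were 8935 with 19, 125 and 110 termini, 8621 with 14, 97 and 147, and 9193 with 29, 65 and 111, all in MT-ATP6. At 10 U 8935 had 3, 12 and 2 termini and ranked 51 among the genes' H-strand positions, while 8621 ranked 9 and 9193 ranked 13. On the L strand the leading untreated positions were 8943 with 20, 149 and 151 termini, 8439 with 16, 79 and 69, and 8944 with 13, 73 and 76. Of these, 8439 and 8944 were also among the 5 highest at 10 U. Of the 10 highest H-strand positions of each replicate, 9 were shared by all 3 replicates at 10 U and 6 were in the untreated samples, and on the L strand 6 and 5 were.

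MT-ATP8 and MT-ATP6 were not hit alike before treatment. Per base and per 100000 termini outside the NCR, the bases of MT-ATP8 alone had 2.18 ± 0.208 (SD, n = 3) H-strand termini and 4.11 ± 0.585 L-strand termini in the untreated samples. The bases of MT-ATP6 alone had 3.74 ± 0.350 and 3.45 ± 0.145. With all bases of each gene counted, the untreated H/L ratio was 0.783, 0.548 and 0.673 in MT-ATP8, which ranked 13 of the 13 mitochondrial protein-coding genes. It was 1.21, 0.985 and 1.12 in MT-ATP6, which ranked 3. The 2 genes did not overlap in any amount up to 0.1 U and at 10 U, and overlapped at 1 U.

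At 1 U the H/L ratio was 2.00, 3.46 and 4.93 in MT-ATP8 and 3.15, 5.27 and 6.65 in MT-ATP6. Within each replicate MT-ATP6 was the higher one. At 10 U the ratio was 1.34, 1.13 and 1.52 in MT-ATP8 and 2.44, 2.28 and 2.40 in MT-ATP6, which then ranked 7 and 2 of the 13. The pair at 8765 and 8766 lies in MT-ATP6 and is part of its value.

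The share of each gene over its untreated share describes how far each strand moved. For MT-ATP8 it was 1.85 on the H strand at 1 U (1.59 to 2.11 over 3 replicates) and 1.75 at 10 U (1.70 to 1.79). For MT-ATP6 it was 1.66 (1.32 to 1.91) and 1.42 (1.26 to 1.54). On the L strand it was 0.377 (0.257 to 0.623) at 1 U and 0.875 (0.750 to 1.03) at 10 U for MT-ATP8, and 0.382 (0.309 to 0.507) and 0.663 (0.630 to 0.693) for MT-ATP6. The ranges of the genes overlapped on both strands at 1 U, and at 10 U they did not. The H-strand value of MT-ATP6 at 10 U includes the pair at 8765 and 8766.

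All 13 protein-coding genes moved the same way as the ATP synthase genes. On the H strand all 13 were higher at 1 U and on the L strand all 13 were lower, and every one of these 26 passed the exact permutation test over the 5 amounts after adjustment over the 26, which is 100% of those tested. The direction on both strands therefore was not particular to the ATP synthase genes. On the H strand at 1 U the factor went from 1.22 in MT-CO1, a subunit of cytochrome c oxidase, to 2.38 in MT-CYB, the cytochrome b of complex III, with a median of 1.79. The neighbours MT-CO2 and MT-CO3, further subunits of cytochrome c oxidase, had 1.38 and 1.26. On the L strand all 13 lay between 0.363 in MT-CO3 and 0.407 in MT-CO1 at 1 U. At 10 U the H-strand median was 1.38, and MT-ATP8 ranked 2 and MT-ATP6 ranked 4 of the 13. The pair at 8765 and 8766 is part of the value of MT-ATP6, and its rank without the pair was not computed. The highest was MT-ND4L, a subunit of complex I, with 1.93. At 10 U the lowest H-strand value was 0.992 in MT-CO1.

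Against the sum of MT-CO2 and MT-CO3, the protein-coding genes on either side, the H/L ratio of the ATP synthase genes was higher in all 15 samples. The quotient was 1.44, 1.08 and 1.16 untreated, 1.35, 1.56 and 1.57 at 1 U and 1.77, 1.67 and 1.55 at 10 U. All 3 samples at 10 U were above the 3 untreated ones, while those at 1 U overlapped them. Without the pair at 8765 and 8766 the quotient was 1.39, 1.06 and 1.13 untreated and 1.40, 1.32 and 1.28 at 10 U, and these groups overlapped. With the pair counted, the spread of the quotient over the amounts passed the test (exact permutation p = 0.0175), and the quotient without the pair was not tested. The comparison with MT-CO2 and MT-CO3 was added after the values were seen.

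**Figure D3:**
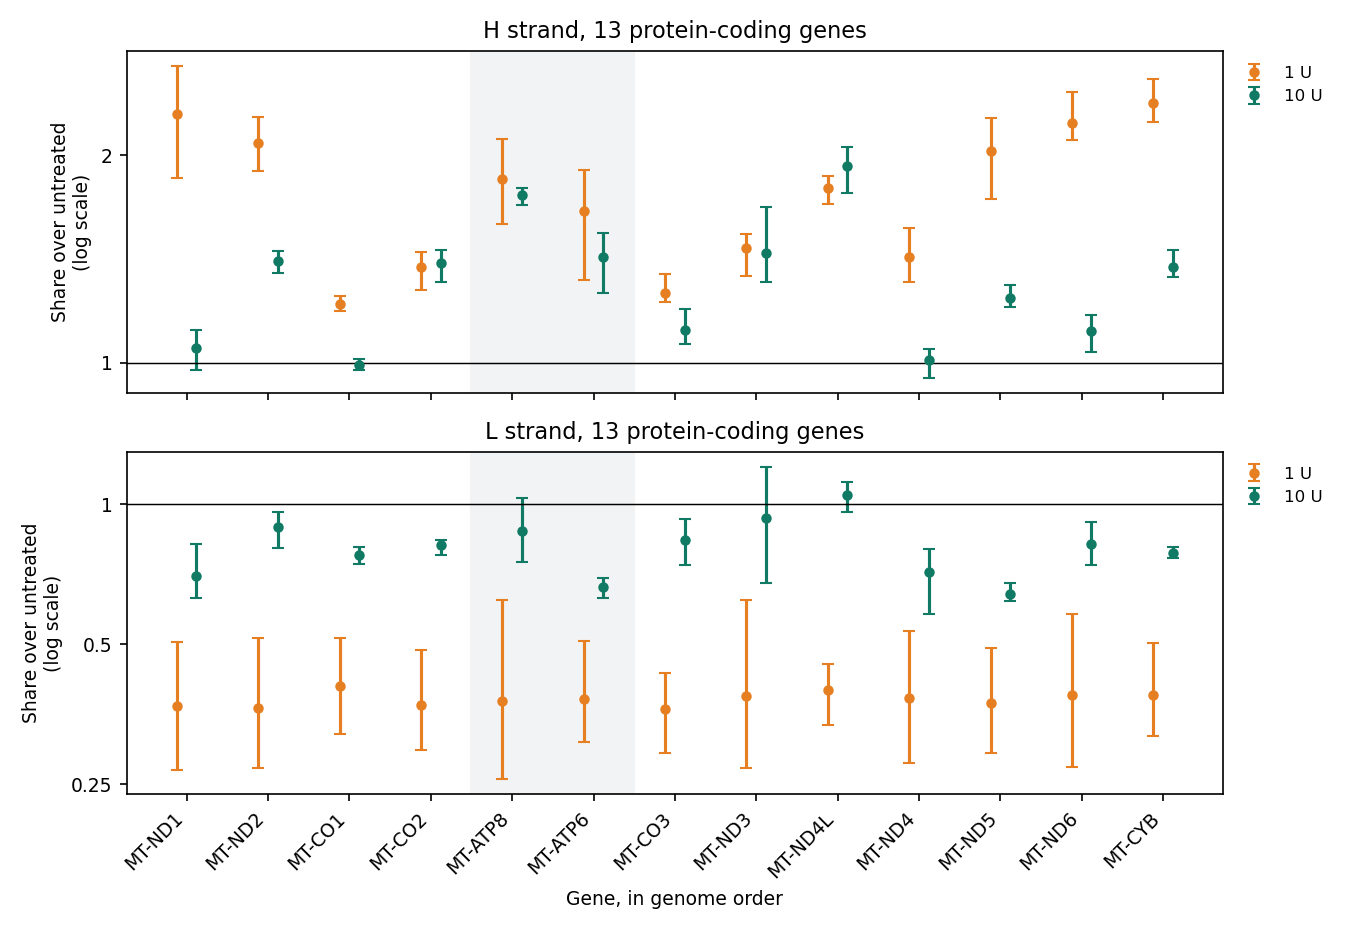
Share of each of the 13 mitochondrial protein-coding genes over the share in its own replicate number without P1 (log scale), on the H strand above and the L strand below, at 1 U and 10 U. Points are geometric means of 3 replicates, bars go from the lowest to the highest replicate, and the line marks no change. MT-ATP8 and MT-ATP6, shaded, lie at 1.85 and 1.66 on the H strand at 1 U, and on the L strand at 1 U all genes lie between 0.363 and 0.407.

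Along the genes, 17 windows of 46 bases per strand were tested with edgeR's quasi-likelihood test among 670 windows of both strands outside the NCR. These windows of the genes ran from 8389 to 9170 and left out the outermost bases. Positions 8369, 8370 and 9193 on the H strand and 8373 on the L strand were thus not in them. At 0.01 U no window was called at an adjusted p of 0.05 by edgeR or by DESeq2, which is 0% of all windows, and of the 34 windows of the genes none and of all 670 windows 14 had an unadjusted p under 0.05 in edgeR. At 0.1 U 12 of the 17 H-strand windows of the genes were higher and 0 lower, where 66% and 12.5% of all H-strand windows were. All 17 L-strand windows were lower, where 96.4% of all were lower and 0% higher. These counts were near those of all windows. Without replicate 2, 16 in place of 29 windows of the genes were called, and 431 in place of 586 of all windows.

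At 1 U 14 of the 17 H-strand windows were higher and 0 lower, against 68.1% and 15.5% of all H-strand windows, and all 17 L-strand windows were lower, against 100% lower and 0% higher. The window from 9125 to 9170 near the end of MT-ATP6 had 54, 96 and 87 H-strand termini untreated and 481, 714 and 516 at 1 U, and its log2 change was 1.86 (SE 0.211, edgeR adjusted p = 1.45e-09). The H-strand window from 8849 to 8894 changed by 1.13 (SE 0.156, edgeR adjusted p = 4.81e-08). On the L strand the windows from 8941 to 8986 and from 9033 to 9078 fell by 1.51 and 1.38 on the log2 scale (edgeR adjusted p = 1.33e-09 and 1.76e-09). With all mitochondrial termini as the total the second was at -0.49 and was not called (edgeR adjusted p = 0.0636). The L-strand windows of the genes at 1 U lay between -1.75 and -1.22 (log2), a narrower span than on the H strand, where they lay between -0.02 and 1.86. When each position counted once, none of the 34 windows was called at 0.1, 1 or 10 U by edgeR, with 1, 14 and 8 at an unadjusted p under 0.05, and 1, 32 and 7 of all 669 windows tested were called.

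At 10 U the windows of the genes went both ways. Of the 17 H-strand windows 8 were higher and 2 lower, against 32.2% and 19.7% of all H-strand windows, and of the 17 L-strand windows 1 was higher and 10 were lower, against 11.3% and 48.4%. Without replicate 2, 5 in place of 21 windows of the genes were called, and without replicate 3, 12 were. Of all windows, 212 and 312 in place of 374 were. The window from 8757 to 8802, which holds the pair, had 105, 352 and 349 H-strand termini untreated and 335, 480 and 208 at 10 U, with a log2 change of 2.12 (SE 0.137, edgeR adjusted p = 5.14e-15). Without the pair the change was 0.46 (edgeR adjusted p = 0.0173). The H-strand window called higher with the next lowest adjusted p, from 9079 to 9124, changed by 0.90 (SE 0.205, edgeR adjusted p = 0.000416), and by 0.78 without replicate 2 (edgeR adjusted p = 0.058).

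The 2 H-strand windows called lower at 10 U, from 8987 to 9032 and from 8619 to 8664, fell by 0.43 and 0.41 on the log2 scale (edgeR adjusted p = 0.0281 and 0.0317), and neither was called with TMM scaling, where they were -0.14 and -0.10. The first also lost its call without any 1 of the 3 replicates and the second without replicate 2 or 3. The L-strand window from 8481 to 8526, which holds position 8489, was the one called higher, by 0.45 (edgeR adjusted p = 0.0339), and it lost the call without replicate 2 (edgeR adjusted p = 0.355). The L-strand windows from 8573 to 8618 and from 8987 to 9032 fell by 1.22 and 0.99 (edgeR adjusted p = 4.11e-05 and 5.1e-05). These changes are relative to all termini outside the NCR. With TMM scaling the median log2 change of all windows at 10 U moved up by 0.31. The 34 windows of the genes then gave 12 higher and 6 lower, and all 670 windows gave 200 and 121. DESeq2's size factors gave 11 and 5 of the genes' windows and 186 and 123 of all. With all mitochondrial termini as the total the median moved up by 1.17, with 27 and 0 of the genes' windows and 470 and 9 of all. With that total the L-strand windows from 8573 and from 8987 were at -0.03 and 0.21, and neither was called. At 1 U the last total moved the median up by 0.90 and gave 17 higher and 5 lower of the genes' windows, and 282 and 131 of all.

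**Figure D4:**
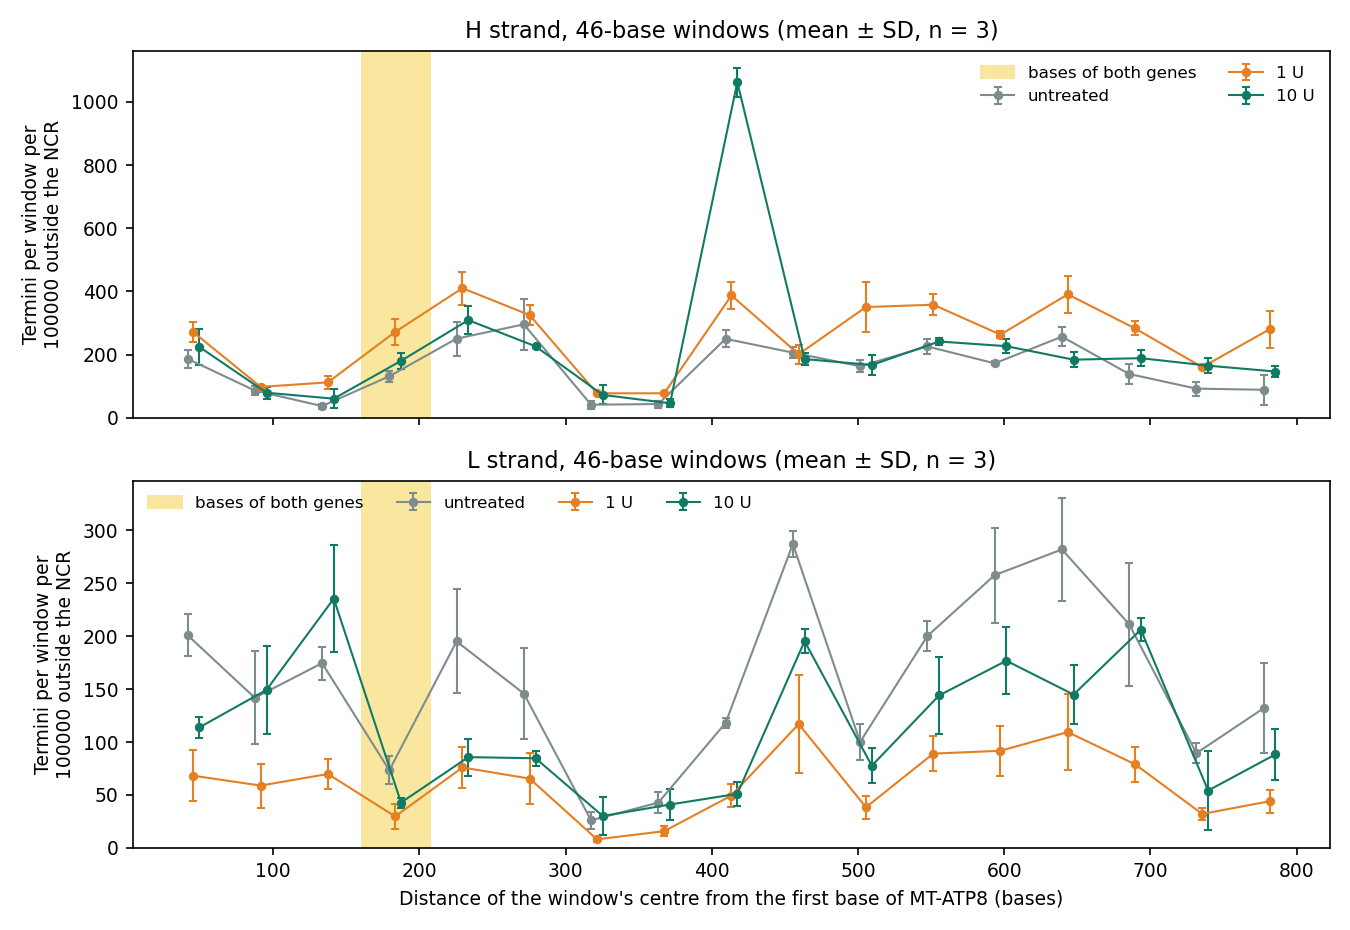
Termini per 46-base window and per 100000 termini outside the NCR, on the H strand above and the L strand below, against the distance of the window's centre from the first base of MT-ATP8 in bases. Points are the mean ± SD (n = 3) of untreated, 1 U and 10 U samples, and the shaded stretch holds the bases of both genes. The H-strand window with the pair stands at 1062 at 10 U, and the L-strand line of 1 U runs below that of the untreated samples in every window.

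The shared bases had fewer L-strand termini than the rest of both genes. They held 23, 134 and 103 L-strand termini untreated, 94, 60 and 33 at 1 U and 15, 18 and 8 at 10 U. Per base, the shared stretch had 0.384, 0.507 and 0.439 times the L-strand termini of the rest untreated, 0.502, 0.458 and 0.391 times at 1 U and 0.420, 0.326 and 0.337 times at 10 U. All 15 samples lay below 1, between 0.326 and 0.610, with a geometric mean of 0.449 (exact two-sided sign-flip test, p = 6.1e-05, the smallest that 15 samples allow, adjusted p = 0.000549). The spread over the amounts did not pass the test (exact permutation p = 0.0633), but did without replicate 1 (exact permutation p = 0.0417). The 15 samples share these bases, so the test shows a stable low density at this stretch and does not set it apart from other stretches. Among the 335 L-strand windows outside the NCR, the shared one ranked 283 from the highest untreated, 279 at 1 U and 305 at 10 U, and 2 of the other 16 windows of the genes were lower in each of these.

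On the H strand the shared bases were nearer to the rest. They held 56, 177 and 189 termini untreated, 503, 650 and 507 at 1 U and 65, 69 and 36 at 10 U. The ratio per base was 0.877, 0.791 and 0.836 untreated, 0.988, 1.10 and 1.03 at 1 U and 0.913, 0.676 and 0.735 at 10 U. It was below 1 in 13 of 15 samples, with a geometric mean of 0.870 (exact sign-flip p = 0.000977, adjusted p = 0.00176). This sign-flip test, too, took the 15 samples as independent. The spread over the amounts passed the test (exact permutation p = 0.035, adjusted p = 0.0394). Both calls were lost under alternatives. With the borders moved by 2 bases the mean was 0.950 (exact sign-flip p = 0.146), and against the bases within 100 of the stretch it was 0.969 (exact sign-flip p = 0.524). Without the second or the third replicate the spread gave exact permutation p = 0.317 and 0.392. The rest of the genes holds the pair at 8765 and 8766. Without the pair the spread gave exact permutation p = 0.0883, and the factor at 10 U over untreated was 1.13 in place of 0.922. The pair was chosen at 10 U, so leaving it out raises the ratio there by construction.

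**Figure D5:**
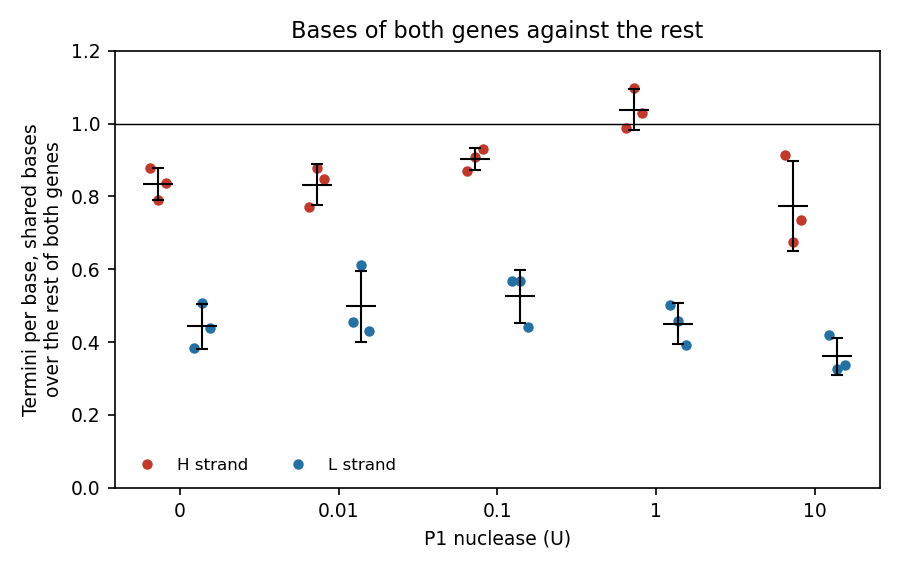
Termini per base in the 46 bases of both genes over termini per base in the rest of both genes, by strand and P1 amount in U. Points are replicates, black bars are the mean ± SD (n = 3), and the line marks equal density. All 15 L-strand values lie between 0.326 and 0.610, and the H-strand values lie between 0.676 and 1.10.

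Nuclear copies of the genes were checked because reads were mapped to the mitochondrial genome alone. GENCODE lists 30 nuclear pseudogene copies of MT-ATP8 and MT-ATP6, and the nuclear files of hg19 held 11 to 40 termini over all of them per sample. This equalled 0.197 to 1.08% of the mitochondrial termini of the genes in the same sample, 0.206 to 1.08% untreated and 0.748 to 0.934% at 10 U. The copy with the most termini, MTATP6P1, had 3, 6 and 4 untreated and 0, 1 and 3 at 10 U. The paper states a filter against priming at A-rich sequences for nuclear termini and names none for mitochondrial ones, so these percentages may compare counts filtered differently. How many nuclear reads the mitochondrial counts hold was not tested.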

How the data were processed

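Termini were mapped in 15 K562 samples, grouped by P1 amount and replicate number from the deposited titles. The authors aligned reads with BWA-MEM 0.7.12 to the mitochondrial genome and to hg19. Their deposited files list, by position and strand, the count of termini, which was used unchanged. Whether PCR duplicates were removed is not given in the sources used here, so counts may not be independent molecules. Region lists made with SICER 1.1 and lists of clustered sites were not used.

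Genes came from GENCODE 44 and were not converted to the mitochondrial genome of the files. The plus strand was taken as H. Members and lists were chosen with earlier results of these data known. Named positions were the 5 highest per strand at 10 U and the 3 highest untreated, and named windows were up to 2 per strand and direction with the lowest adjusted p at 1 U and 10 U. MT-CO2, MT-CO3 and the highest and lowest genes were named beside both ATP synthase genes.

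Each sample's values were compared as log2 values in exact permutation tests that exchanged values within replicate numbers only (14400 arrangements, smallest p 6.94e-05) and sign-flip tests (32768 sign patterns), with Benjamini-Hochberg adjustment over 9 tests and calls at 0.05. The replicate number was a block because the study's methods pair each treated sample with the untreated one of its number. The sign-flip tests had no such block and took the 15 samples as independent. Windows with at least 10 termini in 3 samples were tested with edgeR 4.0.16 (R 4.3.3), with the termini outside the NCR as library size and the replicate number as block. The SE of a window was its absolute log2 change divided by the square root of the test's F statistic, not an error given by the fit. DESeq2 1.42.0, other scalings, borders, window lengths, thinning, unique sites and left-out replicates were alternatives. Scripts were tested on simulated data. Depth was 20536 to 229564 termini outside the NCR per sample, and errors cover the spread between 3 replicates, which the study calls biological replicates.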

Additional observations from a re-analysis of the deposited data

How the results depend on the processing

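Across the alternatives, the H/L ratio of termini and the H-strand share kept their direction and their call. With all mitochondrial termini as the total, the L-strand share at 10 U was 1.63 times the untreated one, and with this total the windows H 8987, H 8619 and L 8987 at 10 U changed by 0.73, 0.79 and 0.21 (log2). The factor of unique sites went from 1.55 to 1.75 at 1 U and from 1.34 to 1.44 at 10 U when a replicate number was left out, with exact permutation p = 0.0667 without replicate 3. For the quotient over the rest the factor went from 0.944 to 1.10 at 1 U and from 1.25 to 1.38 at 10 U, and without the pair at 8765 and 8766 it was 0.999 and 1.10, where the drop at 10 U follows from how the pair was chosen. The overlap's H-strand ratio was 0.950 with borders moved by 2 bases, 0.965 without the 10 highest untreated positions and 0.969 against the bases within 100. Its factor over untreated went from 1.18 to 1.31 at 1 U and from 0.867 to 0.957 at 10 U with a replicate left out, was 1.26 and 1.13 without the pair, and was 1.30 at 10 U against the bases within 100. The L-strand factor of the overlap, which did not pass the test, went from 0.898 to 1.09 at 1 U and from 0.703 to 0.917 at 10 U with a replicate left out. It was 1.03 and 0.759 with borders moved by 2 bases and 0.966 and 0.694 against the bases within 100, where its spread passed the test.

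With windows of 92 bases, 15, 15 and 10 of 16 windows of the genes were called at 0.1, 1 and 10 U, and 307, 306 and 192 of 334 windows in all. Thinned to equal termini, 13 of the genes' 33 windows were called at 0.1 U and 12 at 10 U, and 364 and 283 of 656 in all. As unique sites, 0, 0 and 0 of the genes' windows were called at 0.1, 1 and 10 U and 1, 32 and 7 of all, and the H-strand windows 8987 and 8619 changed by 0.094 and 0.0081 at 10 U. With a replicate left out, 16 to 28 of the genes' 34 windows were called at 0.1 U and 5 to 20 at 10 U. Of all 670 windows 431 to 572 were called at 0.1 U and 212 to 368 at 10 U, and each count was lowest without replicate 2. The cause of these changes was not tested. Same-numbered samples had deviations with a median correlation of 0.41 (-0.27 to 0.93) over 26 gene and strand shares and other samples one of -0.17 (-0.90 to 0.86). Same-numbered samples were thus more alike in the median, but not in every pair. With no replicate block the quotient's spread gave p = 0.00472 (permutation), and no call of a tested ratio, share or density changed. Without this block 20 of the genes' windows and 356 of all 670 were called at 10 U. Depth limits the named single positions at 10 U, where 4 of the 5 on the L strand had 7 to 35 termini per sample.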
